A study of Mus musculus with 15 samples.

Results

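The complement genes C1qa, C1qb, C1qc, C3, Cfb, C3ar1 and C5ar1 were followed in mouse bone marrow-derived macrophages treated with an interferon, with LPS, or with both. They were found by the gene symbol that the platform annotation gives each probe. Of these 7 genes 6 had a probe, 1 each, among the 10900 gene symbols of the array table, and C3 was not analysed here. All macrophages came from C57Bl/6 mice of unstated age and were grown from bone marrow, and no group carries a genetic change. RNA was measured on 15 Illumina bead arrays in 6 groups. IFNg_LPS (n = 3 arrays) and IFNb_LPS (n = 2) were primed with IFNγ or IFNβ for 18 h and then given LPS, the bacterial cell wall lipid that activates Toll-like receptor signalling, for 6 h. Ctrl_LPS (n = 2) had 6 h of LPS without an interferon, IFNg (n = 3) and IFNb (n = 2) had 18 h of the interferon alone, and Ctrl (n = 3) had neither. LPS was used at 10 ng/µl per the labels, whose unit may be a slip, and the interferon dose is not stated in them. They do not say whether the arrays of a group are separate cultures or animals, so every p-value measures the spread between arrays, which may be technical. They also do not say whether cells without LPS were kept for the extra 6 h.

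Complement is a cascade of plasma proteins that tags targets for uptake, and macrophages make several of its components themselves. C1q, built from A, B and C chains, opens the classical pathway when it binds antibody complexes or dying cells. Factor B supplies the protease of the alternative pathway convertase, which cleaves C3, and the small fragments C3a and C5a act on cells through the receptors C3aR and C5aR1.

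Levels are log2 of background-corrected, quantile-normalized bead intensity, and the brightest genes reached 15.4. A probe counted as detected on an array when its detection p-value was under 0.01, and it entered the fit when it was detected on every array of at least 1 group. That left 7669 genes, 5 of them complement genes named above; C3ar1 did not pass. Cfb passed through the groups that had LPS. A gene was called when its adjusted p from limma, with the Benjamini-Hochberg correction over all 7669 genes, was under 0.05. Probes of different genes bind with different strength, so levels are compared between groups and not between genes. In these bulk samples, fewer cells that make a transcript and less RNA per cell cannot be told apart.

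Array quality bears on several values below. Arrays of 1 group correlated at 0.979 to 0.993, and 9342 to 11047 probes were detected per array. On the second principal component, which held 13.5% of the variance, IFNg_LPS array 1 lay at 2.0, against 19.2 and 18.7 for the other IFNg_LPS arrays and -22.0 and -18.3 for Ctrl_LPS. All arrays with LPS were on 1 slide and all without on another, so LPS and slide cannot be told apart. Macrophage markers were present: 7 of the 7 listed markers in the table passed the detection filter, and their summed intensity was 61600 to 66600 in IFNg and 59600 to 61300 in Ctrl. It was 67200 to 80400 in IFNg_LPS and 72200 to 78300 in Ctrl_LPS. Single markers differed within these sums. In IFNg against Ctrl 2 of the 7 were called higher and 1 lower, with Fcgr1 5.01-fold higher and Cd14 4.65-fold lower. No T and NK cell or mast cell marker passed it, and no fibroblast marker was in the table, so fibroblasts were not assessed. The B cell marker Cd79b passed at 32.5 to 124, and Pf4, a platelet and megakaryocyte gene, at 4760 to 7960. Of 4 dendritic cell markers tested (Clec9a, Siglech, Ccr7 and Batf3), 2 were higher in IFNg, where their summed intensity was 469 to 485, against 186 to 234 in Ctrl. Under LPS 3 were higher in IFNg_LPS, at 403 to 627, against 222 to 247 in Ctrl_LPS. The sum of 7 neutrophil markers was 2770 to 3590 in IFNg and 2310 to 2790 in Ctrl. It was 2900 to 3380 in IFNg_LPS and 4060 to 4370 in Ctrl_LPS. The part of these other cell types in the results below was not tested.

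**Figure D1:**
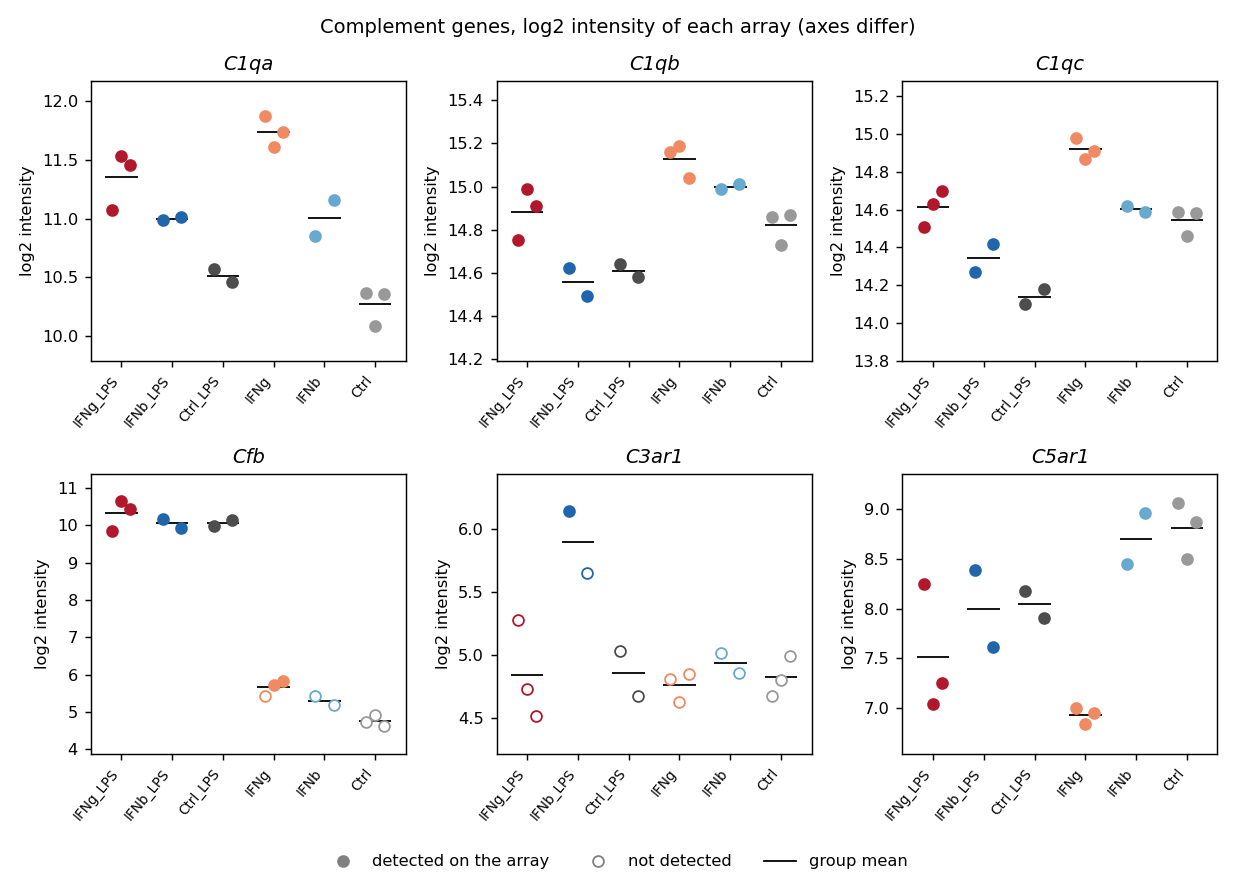
Log2 bead intensity of each array for the 6 complement genes with a probe, by group, with a line at each group mean. Axes differ between panels, and open circles mark arrays on which the probe was not detected. C1qa is highest in IFNg (11.61 to 11.87), Cfb is at or above 9.86 on every LPS array, and C5ar1 is lowest in IFNg (6.84 to 7.0).

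The study asked how interferon priming changes macrophage gene expression. IFNγ alone raised C1qa, C1qc and, near background, Cfb, and it lowered C5ar1. Thus 4 of the 5 complement genes tested were called, where 26.1% of all genes were. Their median log2 difference was 0.38, beside -0.07 over all genes. After IFNβ alone 0 of the 5 were called by limma, beside 1.12% of all genes. At an unadjusted p under 0.05 there were 2 of the 5, beside 631 of all 7669 genes. That median was 0.19, beside 0 over all genes.

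C1qa encodes the A chain of C1q and changed most among the C1q genes. Its level was 11.87, 11.61 and 11.74 on the IFNg arrays, against 10.37, 10.09 and 10.36 on the Ctrl arrays. The groups did not overlap, and the fitted difference was 1.47 on the log2 scale (SE 0.152, 2.77-fold, limma adjusted p = 5.37e-06). After IFNβ the arrays read 10.85 and 11.16, also above all 3 Ctrl arrays. That difference of 0.73 (95% interval 0.37 to 1.10) missed the threshold at an adjusted p of 0.0592. It passed with an offset of 50 (adjusted p = 0.0298) and with no background correction (adjusted p = 0.0135). Leaving out any 1 of the Ctrl arrays gave no call (adjusted p from 0.112 to 0.243). The difference was 0.89 without IFNb array 1 and 0.58 without IFNb array 2. IFNγ was set against IFNβ directly, where 2 of the 5 genes were called, beside 20.5% of all genes. C1qa was higher in IFNg by 0.74 (SE 0.17, adjusted p = 0.00673). Without IFNb array 1 this difference was 0.58, with an adjusted p of 0.106.

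C1qb and C1qc encode the B and C chains. In the RefSeq gene order of GRCm38.p6, C1qb, C1qc and C1qa follow one another on chromosome 4, with no other protein-coding gene between them. The 250 bases before the start of C1qb (chr4:136886201-136886450, minus strand) and of C1qc (chr4:136892915-136893164, minus strand), from RefSeq on GRCm38.p6, are shown because these neighbours varied together over the arrays. Capitals mark matches to the NF-kB motif GGGNNNNNCC and to the PU.1 core GAGGAA on either strand.
C1qb promoter: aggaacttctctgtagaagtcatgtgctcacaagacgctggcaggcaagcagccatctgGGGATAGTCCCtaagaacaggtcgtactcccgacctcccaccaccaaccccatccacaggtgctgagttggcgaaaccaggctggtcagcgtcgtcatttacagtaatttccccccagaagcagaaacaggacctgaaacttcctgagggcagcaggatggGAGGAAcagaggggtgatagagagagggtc
C1qc promoter: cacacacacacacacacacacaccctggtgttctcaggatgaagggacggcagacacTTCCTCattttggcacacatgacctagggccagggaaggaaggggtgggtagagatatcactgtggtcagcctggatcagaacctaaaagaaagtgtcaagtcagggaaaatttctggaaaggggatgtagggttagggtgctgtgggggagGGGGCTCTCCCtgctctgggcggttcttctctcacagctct
C1qb held 2 overlapping NF-kB matches, 191 to 181 bases before the start, and 1 PU.1 core match 30 to 25 bases before it. C1qc held 3 overlapping NF-kB matches, 41 to 31 bases before the start, and 1 PU.1 core match 193 to 188 bases before it. Of all 32841 promoter windows of that length, 45.8% hold the NF-kB motif and 23.3% the PU.1 core, so these matches are common. Neither the interferon-stimulated response element, read as GAAA and GAAA with 2 bases between (2.98% of windows), nor the gamma-activated site TTCNNNGAA (7.02%) occurred in either window. The windows of C1qa and Cfb were not used here.

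C1qc read 14.98, 14.87 and 14.91 in IFNg, against 14.59, 14.46 and 14.58 in Ctrl. Every IFNg array lay above every Ctrl array, and the difference was 0.38 (SE 0.114, 1.3-fold, limma adjusted p = 0.0249). The call was lost when any Ctrl array or IFNg array 1 or 3 was left out, with adjusted p from 0.0513 to 0.0925. C1qb read 15.16, 15.19 and 15.04 in IFNg, against 14.86, 14.73 and 14.87 in Ctrl. Again the groups did not overlap, but the difference of 0.31 (95% interval 0.06 to 0.56) was not called (adjusted p = 0.0653). It was called under 6 of 21 alternatives, among them median scaling (0.55, adjusted p = 0.00499) and trended and robust variance (adjusted p = 0.0047). With IFNβ C1qb was at 14.99 and 15.01 and C1qc at 14.62 and 14.59. The differences from Ctrl were 0.19 (adjusted p = 0.886) for C1qb and 0.06 (adjusted p = 0.999) for C1qc. Both probes were close to the top of the scale, C1qb within 0.22 to 0.92 and C1qc within 0.43 to 1.31 log2 units of it, whereas C1qa was 3.54 to 5.32 units below. Whether the scale's upper end reduced the differences of C1qb and C1qc was not tested.

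Cfb encodes factor B. Its level without LPS was 5.44, 5.73 and 5.84 in IFNg, 5.42 and 5.18 in IFNb, and 4.74, 4.92 and 4.61 in Ctrl. The probe was detected on 2 of 3 IFNg arrays and on none of the IFNb or Ctrl arrays. Taking the lowest detected signal of each Ctrl array as a bound, Cfb was at least 1.1-fold higher in IFNg (limma adjusted p = 0.00273, group means 5.67 in IFNg and 4.76 in Ctrl). With no background correction the log2 difference was 0.33 and not called (adjusted p = 0.0885). The raw intensities overlapped, 131.2 to 197.4 in IFNg against 122.3 to 145.3 in Ctrl.

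C5ar1 encodes the receptor for C5a, which draws phagocytes to sites of complement activation. It read 7.0, 6.84 and 6.95 in IFNg, against 9.06, 8.50 and 8.87 in Ctrl. All IFNg arrays were below all Ctrl arrays, a difference of -1.88 (SE 0.287, 3.68-fold lower, limma adjusted p = 0.000217). IFNb arrays read 8.45 and 8.96 and overlapped Ctrl, with a difference of -0.11 (95% interval -0.80 to 0.58, adjusted p = 0.999). IFNγ against IFNβ gave -1.77 (SE 0.321, adjusted p = 0.00124). C5ar1 lies beside C5ar2 on chromosome 7, and its 250 bases before the start (chr7:16259339-16259588, minus strand, RefSeq, GRCm38.p6) are shown as the promoter of the gene that IFNγ lowered.
C5ar1 promoter: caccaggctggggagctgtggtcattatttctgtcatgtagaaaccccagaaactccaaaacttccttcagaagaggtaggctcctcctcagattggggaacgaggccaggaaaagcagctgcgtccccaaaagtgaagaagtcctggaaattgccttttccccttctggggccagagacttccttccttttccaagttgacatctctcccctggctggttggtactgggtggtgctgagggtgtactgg
None of the 4 motifs searched occurred in this window, hence no capitals.

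C3ar1 encodes the receptor for C3a. It was detected on 1 array only, IFNb_LPS array 1 at 6.14, and the other IFNb_LPS array read 5.65 with a detection p of 0.017. All other arrays were between 4.52 and 5.28. After normalization IFNb_LPS thus lay above all other groups. Its raw intensities, 162.8 and 123.8, lay within the range of IFNg_LPS, 112 to 166.1. No fit included the probe and no fold is given.

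**Figure D2:**
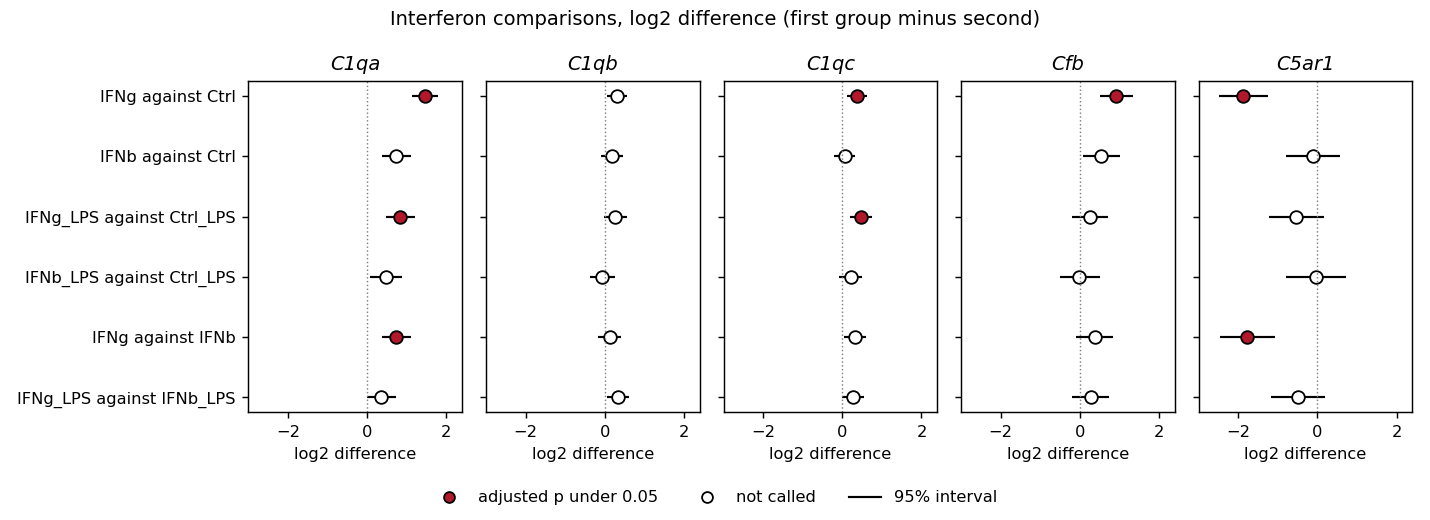
Log2 difference (first group minus second) of the 5 complement genes tested in the 6 comparisons between interferon conditions, with 95% intervals from limma. Filled points have an adjusted p under 0.05. C1qa lies right of 0 and C5ar1 left of 0 for IFNg against Ctrl and for IFNg against IFNb.

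Under LPS the question was whether primed cells still differed from unprimed ones. C1qa and C1qc were higher after IFNγ priming, and these 2 of the 5 genes were called, beside 12.8% of all genes, with a median of 0.27 for the 5 and -0.03 for all. C1qa read 11.07, 11.53 and 11.46 in IFNg_LPS, against 10.57 and 10.46 in Ctrl_LPS. The groups did not overlap, and the difference was 0.84 (SE 0.17, 1.78-fold, limma adjusted p = 0.00581). It was 0.78 (adjusted p = 0.0565) without Ctrl_LPS array 2, and the adjusted p was 0.0765 when only the arrays of those groups were fitted. C1qc read 14.51, 14.63 and 14.70 in IFNg_LPS, against 14.10 and 14.18 in Ctrl_LPS. Its difference was 0.48 (SE 0.127, 1.39-fold, adjusted p = 0.0254). That call was lost when IFNg_LPS array 2 or 3 or either Ctrl_LPS array was left out, with adjusted p from 0.0753 to 0.148.

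C1qb read 14.75, 14.99 and 14.91 in IFNg_LPS, against 14.64 and 14.58 in Ctrl_LPS, a difference of 0.27 that was not called (adjusted p = 0.196). C5ar1 read 8.25, 7.04 and 7.25 in IFNg_LPS, against 8.18 and 7.91 in Ctrl_LPS. Because array 1 stood above both Ctrl_LPS arrays, the groups overlapped and the difference of -0.53 (95% interval -1.22 to 0.16) was not called (adjusted p = 0.312). Without IFNg_LPS array 1 it was -0.90 and called (adjusted p = 0.0283), and without IFNg_LPS array 2 it was -0.29 (adjusted p = 0.664). Array 1 is the one that stood apart on the second principal component.

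After IFNβ priming 0 of the 5 genes were called by limma under LPS, beside 0.6% of all genes. At an unadjusted p under 0.05 there was 1 of the 5, beside 946 of all 7669 genes. The median of the 5 was -0.01, beside -0.02 over all genes. C1qa read 10.99 and 11.01 in IFNb_LPS, above both Ctrl_LPS arrays, with a difference of 0.48 (95% interval 0.08 to 0.88, adjusted p = 0.287). C5ar1 read 8.39 and 7.61 in IFNb_LPS and overlapped Ctrl_LPS, with a difference of -0.04 (95% interval -0.80 to 0.71). In the direct comparison of IFNg_LPS with IFNb_LPS 0 of the 5 were called, beside 13.4% of all genes. Here 1 of the 5 had an unadjusted p under 0.05, beside 2161 of all 7669 genes. C1qa differed by 0.35 (95% interval -0.01 to 0.72, adjusted p = 0.192) and C1qb by 0.33 (95% interval 0.05 to 0.61, adjusted p = 0.114). C1qa and C5ar1 hung on single arrays here. Without IFNg_LPS array 1 the differences were 0.49 (adjusted p = 0.0488) and -0.85 (adjusted p = 0.0363). Without IFNg_LPS array 2 they were 0.27 (adjusted p = 0.434) and -0.25 (adjusted p = 0.703). The C5ar1 difference was -0.09 without IFNb_LPS array 1 and -0.88 without IFNb_LPS array 2.

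LPS raised Cfb in every priming state. Cfb read 9.86, 10.66 and 10.45 in IFNg_LPS, 10.18 and 9.94 in IFNb_LPS, and 9.99 and 10.14 in Ctrl_LPS. The lowest LPS array (9.86) lay far above the highest array without LPS (5.84). Against Ctrl, where the probe was not detected, Ctrl_LPS was at least 23-fold higher (limma adjusted p = 1.23e-10, group means 10.06 in Ctrl_LPS and 4.76 in Ctrl). IFNb_LPS was at least 23.4-fold higher than IFNb (adjusted p = 1.42e-09, means 10.06 in IFNb_LPS and 5.30 in IFNb), and IFNg_LPS was 25.2-fold higher than IFNg (SE 0.192 on the log2 scale, adjusted p = 2.88e-10). With no background correction the log2 differences in these comparisons were 3.18, 2.96 and 3.09, still called. The 3 LPS groups overlapped. Priming added 0.26 (95% interval -0.20 to 0.72, adjusted p = 0.478) with IFNγ and -0.01 (95% interval -0.51 to 0.50) with IFNβ to the log2 level under LPS. Without IFNg_LPS array 1 the IFNγ difference was 0.49 (adjusted p = 0.0799), and without IFNg_LPS array 2 it was 0.09 (adjusted p = 0.854).

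Of the 5 genes tested, 2 were called for Ctrl_LPS against Ctrl, beside 55.2% of all genes, 3 for IFNg_LPS against IFNg, beside 53.3%, and 2 for IFNb_LPS against IFNb, beside 55.1%. Cfb was among the called genes in each comparison. It passed the detection filter only through groups that had LPS, so its place in these counts is no separate evidence. Medians of the 5 were -0.21, -0.24 and -0.26 in these comparisons, beside -0.18, -0.10 and -0.21 over all genes. The C1q calls among them were small falls, and they depend on the scaling of the arrays. C1qc changed by -0.41 in Ctrl_LPS (adjusted p = 0.0148) and by -0.31 in IFNg_LPS (adjusted p = 0.0361) against the same priming without LPS. C1qa changed by -0.39 in IFNg_LPS against IFNg (adjusted p = 0.0455), and C1qb by -0.45 in IFNb_LPS against IFNb (adjusted p = 0.0166). Under median scaling in place of quantile normalization the median of all genes for Ctrl_LPS against Ctrl was -0.03, instead of -0.18. With it the differences were 0.18 and 0 for C1qc, -0.03 for C1qa and 0.02 for C1qb, and none of the 4 was called. Single arrays also decided them. C1qc lost its call in Ctrl_LPS without Ctrl_LPS array 1 (-0.36, adjusted p = 0.0912). In IFNg_LPS against IFNg, C1qa lost its call without array 1 or 3 of either group and C1qc without 5 of the 6 arrays in turn, with -0.24 for C1qa without IFNg_LPS array 1 (adjusted p = 0.185). C1qb lost its call without either IFNb array or IFNb_LPS array 2 (adjusted p up to 0.0968).

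**Figure D3:**
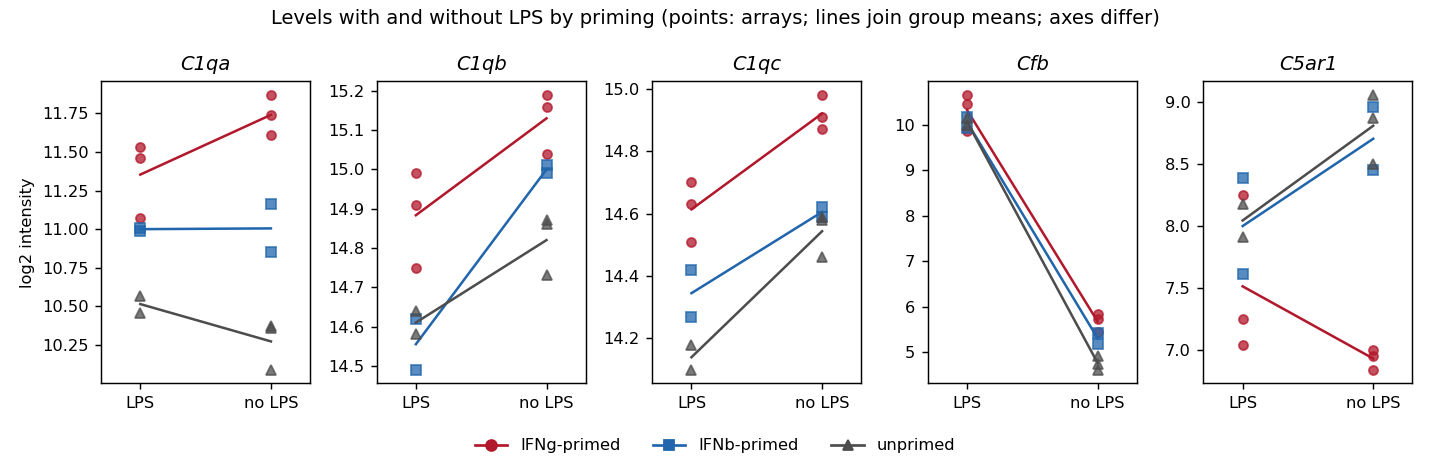
Log2 bead intensity with and without 6 h of LPS, for IFNg-primed, IFNb-primed and unprimed macrophages; points are arrays, lines join group means, and axes differ. Cfb is high with LPS under every priming. For C5ar1 the IFNg-primed line runs opposite to the other 2, with means of 7.52 in IFNg_LPS and 6.93 in IFNg, against 8.05 in Ctrl_LPS and 8.81 in Ctrl.

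C5ar1 had opposite differences with LPS by priming. IFNg_LPS differed from IFNg by 0.58 (95% interval -0.03 to 1.2, adjusted p = 0.102), while Ctrl_LPS differed from Ctrl by -0.77 (95% interval -1.45 to -0.08, adjusted p = 0.0568) and IFNb_LPS from IFNb by -0.70 (95% interval -1.46 to 0.05, adjusted p = 0.105). The test of the difference itself, the interaction of IFNγ with LPS, was 1.35 (95% interval 0.43 to 2.27, adjusted p = 0.0549) and was not called; 8 of 25 alternatives called it. No gene of the 5 was called by limma for this interaction, beside 12.5% of all genes. An unadjusted p under 0.05 was reached by 3 of the 5, beside 2081 of all 7669 genes. For the IFNβ interaction 0 of the 5 were called, beside 0.156% of all genes. An unadjusted p under 0.05 was reached by 0 of the 5, beside 628 of all 7669 genes. The C1qa interaction with IFNγ was -0.63 (95% interval -1.12 to -0.14, adjusted p = 0.0852). Single arrays decided several C5ar1 values. The difference between IFNg_LPS and IFNg was 0.22 (adjusted p = 0.466) without IFNg_LPS array 1 and 0.82 (adjusted p = 0.0368) without IFNg_LPS array 2. Without array 2 the interaction was 1.59 and called (adjusted p = 0.0298). IFNb_LPS differed from IFNb by -1.09 (adjusted p = 0.0372) without IFNb_LPS array 1 and by -0.31 (adjusted p = 0.555) without array 2, and Ctrl_LPS from Ctrl by -0.92 (adjusted p = 0.0434) without Ctrl array 2.

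In order of group means, C1qa ran from IFNg (11.74) through IFNg_LPS (11.36), IFNb (11), IFNb_LPS (11) and Ctrl_LPS (10.52) to Ctrl (10.27). The ranges of IFNg_LPS and IFNb and of IFNb and IFNb_LPS overlapped, and the other neighbours in that order did not. C5ar1 ran from Ctrl (8.81) through IFNb (8.70), Ctrl_LPS (8.05), IFNb_LPS (8.0) and IFNg_LPS (7.52) to IFNg (6.93). Only IFNb with Ctrl_LPS and IFNg_LPS with IFNg were neighbours that did not overlap. IFNg was the highest group for all 3 C1q genes and the lowest for C5ar1.

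Over the 15 arrays C1qb and C1qc had a Pearson r of 0.875, C1qa and C1qc 0.692, C1qa and C1qb 0.624, and C1qa and C5ar1 -0.791. These values are descriptions, since the arrays share treatments, slides and normalization. Among 3907 genes whose group means span at least 1 log2 unit, the 3 whose levels ran most like each gene were taken by r over the same 15 arrays. For C1qa they were Ly86 (0.967), Aif1 (0.956) and Klk1b11 (0.956). For C1qb they were Fcgr3 (0.956), Ddit4 (0.950) and Tbxas1 (0.939), and for C1qc Enc1 (0.968), Oxct1 (0.957) and Pdgfc (0.956). Cfb ran with Otud5 (0.996), Oasl1 (0.996) and Bfar (0.994), and C5ar1 with Ctsl (0.947), Spsb4 (0.939) and Anxa3 (0.930).

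The rest of the complement system was read from a list of 55 further symbols, of which 30 were in the table and 18 were tested. In IFNg 3 were higher and 2 lower than in Ctrl, beside 26.1% called of all genes, a similar share, with a median of -0.03 for the 18. C4b, whose product is cleaved after C1q binds its target, read 7.19, 8.12 and 8.14 in IFNg, against 4.95, 5.48 and 6.08 in Ctrl, where only 1 of the 3 arrays detected it. The groups did not overlap, and the difference was 2.31 (SE 0.428, limma adjusted p = 0.00108). Its size rests on a group mostly at background, and with no background correction it was 1.11, still called. Its near-identical copy C4a has no entry of its own in the table, so the signal may come from either gene. C1rl, a relative of the C1r protease, rose by 0.82 (adjusted p = 0.0163). With no background correction its difference was 0.23 (adjusted p = 0.222), and the call was also lost with an offset of 50, in the authors' values and without Ctrl array 1 or IFNg array 3. Scarf1, a scavenger receptor that binds C1q, rose by 0.78 (adjusted p = 0.000645). Cd59a, an inhibitor of the membrane attack complex, fell by 0.49 (adjusted p = 0.0433), a call lost under 11 of 21 alternatives, among them median scaling, cyclic loess and leaving out any Ctrl array. Without IFNg array 1 it was -0.29 (adjusted p = 0.173). The other called gene, Cr1l, a membrane regulator named after its values were seen, changed by -0.43. C2, which lies beside Cfb on chromosome 17 and supplies the protease of the classical convertase, was not detected on any Ctrl array and on 2 of 3 IFNg arrays. Its means were 5.90 in IFNg and 5.15 in Ctrl, the groups overlapped and the difference was not called (adjusted p = 0.0685). It was called under 5 of 20 alternatives, among them without IFNg array 1 (1.09, adjusted p = 0.00763).

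**Figure D4:**
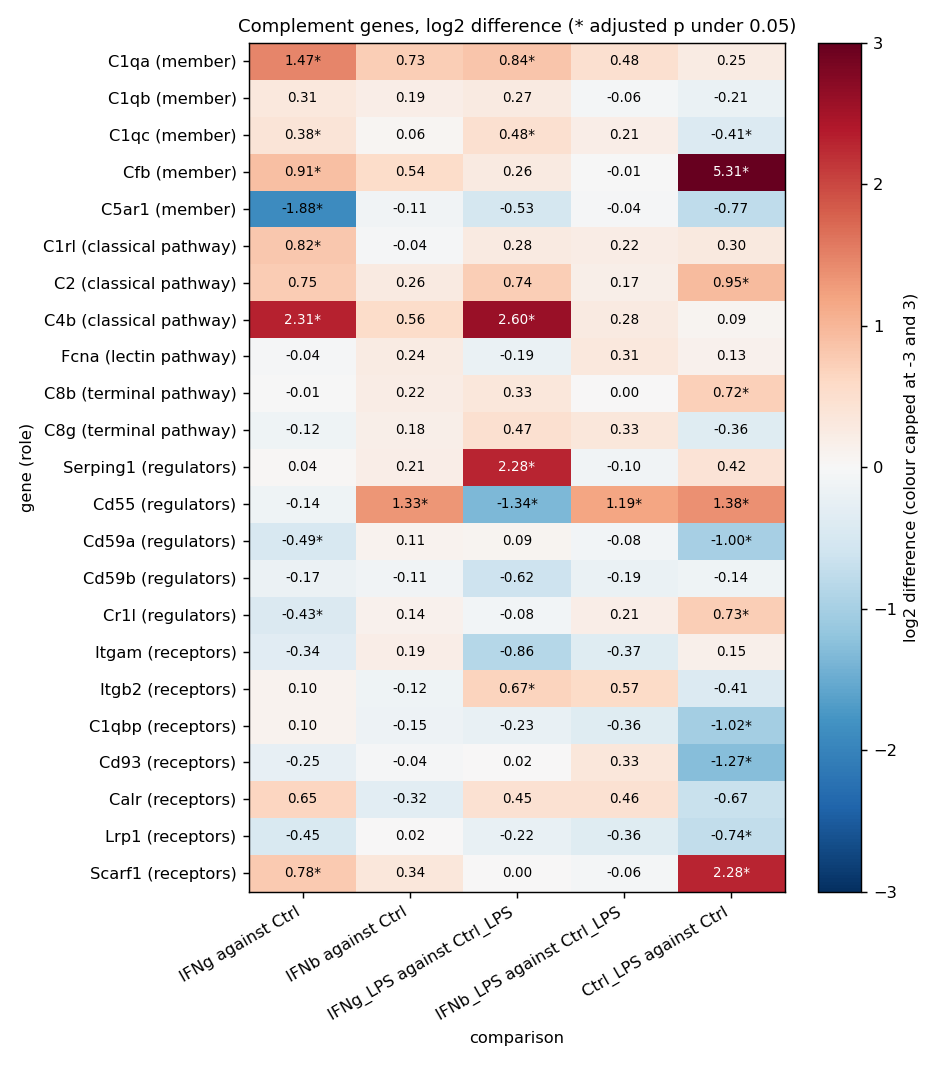
Log2 differences (first group minus second) of the 5 complement genes followed and of the 18 other complement genes tested, in 5 comparisons; an asterisk marks a limma adjusted p under 0.05 and the colour is capped at -3 and 3. Some genes were below background in one or both groups. C1qa and C4b are positive with IFNγ with and without LPS, and Cd55 is positive with IFNβ and negative for IFNg_LPS against Ctrl_LPS.

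Cd55 encodes decay-accelerating factor, which breaks up convertases on the cell surface, and it was the only 1 of the 18 called with IFNβ, beside 1.12% of all genes. Cd55 passed the detection filter only through IFNb, IFNb_LPS and Ctrl_LPS, so its place in this count is no separate evidence. It read 6.17 and 5.98 in IFNb, against 4.53, 4.53 and 5.15 in Ctrl, where it was not detected. It was at least 1.45-fold higher in IFNb (limma adjusted p = 0.00271, means 6.08 in IFNb and 4.74 in Ctrl), and the adjusted p was 0.0673 without IFNb array 1. Under LPS it read 4.57, 5.0 and 4.76 in IFNg_LPS, where it was not detected, 7.19 and 7.44 in IFNb_LPS, and 6.05 and 6.19 in Ctrl_LPS. IFNb_LPS differed from Ctrl_LPS by 1.19 (adjusted p = 0.0256), a call lost when any of these 4 arrays was left out (adjusted p from 0.069 to 0.203). IFNg_LPS was at least 1.18-fold lower than Ctrl_LPS (adjusted p = 0.000724, means 4.78 in IFNg_LPS and 6.12 in Ctrl_LPS). Thus the 3 priming states gave levels under LPS that did not overlap.

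Serping1 encodes C1 inhibitor, which blocks the proteases attached to C1q. It was detected in IFNg_LPS only, at 6.57, 7.83 and 7.36, against 5.08 and 4.87 in Ctrl_LPS. It was at least 2.89-fold higher there (limma adjusted p = 0.000136, means 7.25 in IFNg_LPS and 4.97 in Ctrl_LPS). Over 19 alternatives its log2 difference was 0.95 to 2.62, so this bound depends on the processing. C4b read 7.30, 8.70 and 8.55 in IFNg_LPS, against 5.12 and 6.06 in Ctrl_LPS, where array 1 did not detect it. The difference of 2.60 (adjusted p = 0.00339) was 2.12 without that array (adjusted p = 0.0554) and 1.35, still called, with no background correction. Itgb2, the shared chain of complement receptors of the integrin family, was higher by 0.67 (adjusted p = 0.0256), a call lost without either Ctrl_LPS array or IFNg_LPS array 2 or 3. Itgam, also listed as a receptor, differed by -0.86 and was not called (adjusted p = 0.0759), though 2 of 19 alternatives called it. C2 differed by 0.74 and was not called either (adjusted p = 0.152). The called genes, Cd55 included, made 3 higher and 1 lower of 18 for IFNγ priming under LPS, beside 12.8% called of all genes. The median of the 18 was 0.06. Serping1 was among the 18 only because IFNg_LPS detected it, and Cd55 only through Ctrl_LPS, IFNb and IFNb_LPS. Their places in this count are therefore no separate evidence.

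**Figure D5:**
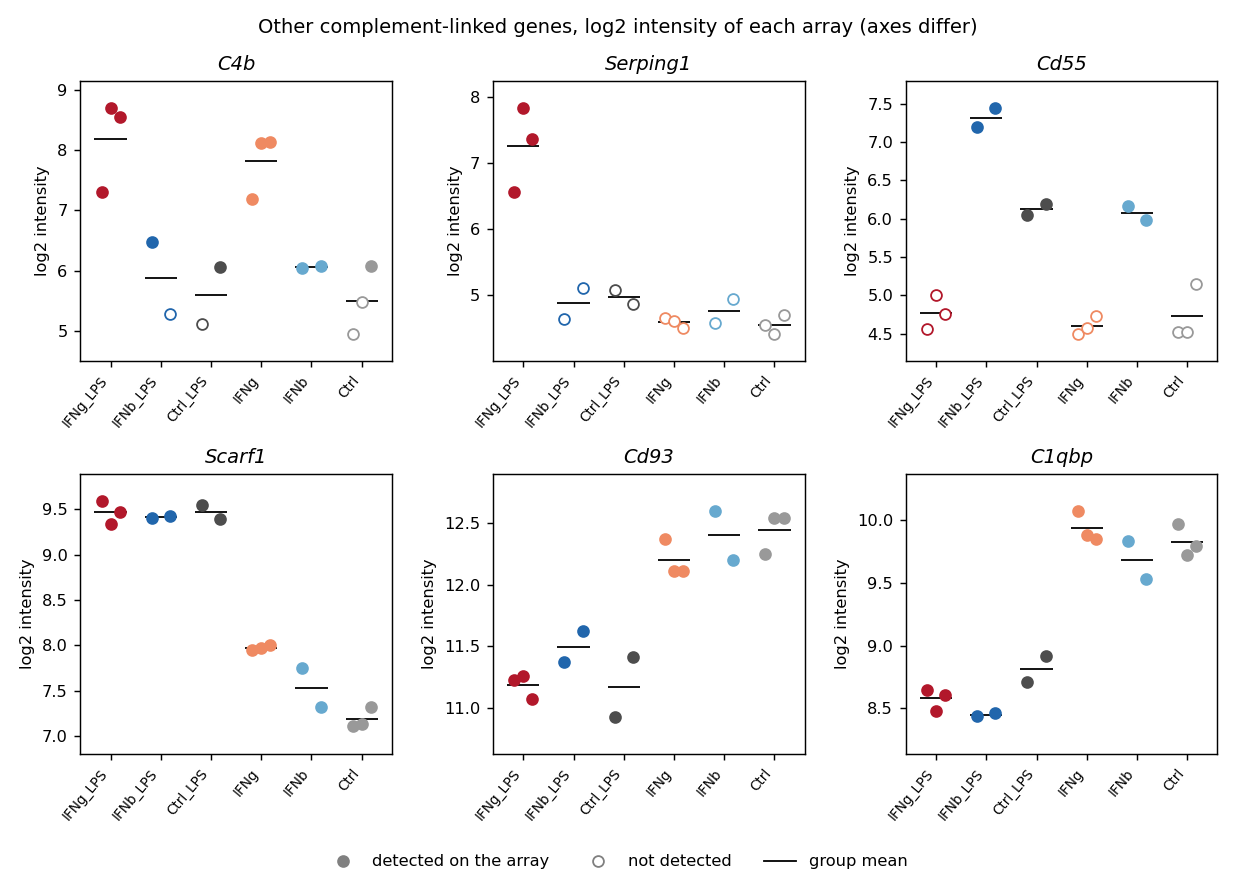
Log2 bead intensity of each array for 6 further complement genes, by group, with a line at each group mean; axes differ and open circles mark arrays without detection. Serping1 is detected in IFNg_LPS only, Cd55 in IFNb_LPS, Ctrl_LPS and IFNb, and Scarf1 is at 9.34 or higher on every LPS array.

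With LPS alone 9 of the 18 were called, 5 higher and 4 lower, beside 55.2% of all genes, so the share was near that of any gene, with a median of 0.11 beside -0.18 over all genes. Scarf1 read 9.55 and 9.39 in Ctrl_LPS, against 7.11, 7.14 and 7.32 in Ctrl, a difference of 2.28 (SE 0.152, 4.86-fold, limma adjusted p = 1.8e-08). Cd55 was at least 1.5-fold higher in Ctrl_LPS (adjusted p = 4.4e-05, means 6.12 in Ctrl_LPS and 4.74 in Ctrl). Cd93, a surface protein once described as a C1q receptor, fell by 1.27 (adjusted p = 4.94e-05), and C1qbp, which binds C1q globular heads and is mostly mitochondrial, by 1.02 (adjusted p = 4.95e-05). C2, named here as the neighbour of Cfb, read 6.49 and 5.72 in Ctrl_LPS, against 5.27, 4.93 and 5.24 in Ctrl. It was at least 1.48-fold higher in Ctrl_LPS (adjusted p = 0.0207), a far smaller bound than that of Cfb. Like Cfb, C2 passed the detection filter through the groups that had LPS. Its raw intensities overlapped, 155 and 198.8 in Ctrl_LPS against 143.6 to 158.1 in Ctrl. Cd55 passed the filter through Ctrl_LPS, IFNb_LPS and IFNb. The places of C2 and Cd55 in the count with LPS alone are therefore no separate evidence.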

How the data were processed

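The 6 complement genes with a probe and the other lists were chosen with earlier results of these data known. The authors deposited a table of raw bead intensity, and per the file headers a detection p-value accompanies each intensity. No source used here states the scanner software or whether background was subtracted. A second deposited table, the authors' normalized values on a log2 scale, served as an alternative. Its lowest correlation with the values computed here was 0.9997 per array, and the largest difference was 0.19. All 15978 probes listed reach a detection p under 0.05 somewhere, so dimmer probes were not analysed here.

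Intensities were corrected with limma 3.58.1 (R 4.3.3) by its normal-exponential model, with the background taken from the detection p-values. After an offset of 16 the arrays were quantile-normalized and log2-transformed. Of all probes 11117 passed the detection filter, and the brightest probe stood for a gene. Of the 15978 probes, 14994 carried 1 gene symbol, 0 several and 984 none. Group means were fitted to all 15 arrays, with 11 comparisons, moderated two-sided tests and Benjamini-Hochberg adjustment over 7669 genes. The number of arrays limits the precision. A fold against a group without detection used, per array, the lowest detected signal or the probe's own where higher. It is given as at least that fold. These bounds hold for the processing described here, and some alternatives gave smaller differences. From the complement lists up to 4 called and 2 uncalled genes per comparison were named. Same-numbered arrays did not deviate together (r from -0.432 to 0.212 over 33 pairs), so the replicate number was not used as a block. The alternatives are given in the closing section.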

Additional observations from a re-analysis of the deposited data

Results flagged for a closer look

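5 genes stood out in the response to LPS of IFNγ-primed against unprimed macrophages: for 3 the difference was called, and for 2 the responses ran opposite ways without a called difference. For Serping1, which encodes C1 inhibitor, the interaction of IFNγ with LPS was 2.24 on the log2 scale (limma adjusted p = 0.00113). Serping1 entered the fit through IFNg_LPS, the only group that detected it, and IFNg, Ctrl_LPS and Ctrl were below background, so the size of this interaction was not measured. For Cd55, which encodes decay-accelerating factor, it was -1.2 (adjusted p = 0.00831). Only Ctrl_LPS of its 4 groups detected the probe, so this size was not measured either, and with no background correction it was -0.42 (adjusted p = 0.0754). The C1q-binding receptor Scarf1, detected on every array, had an interaction of -0.78 (adjusted p = 0.021). It lost the call without Ctrl_LPS array 1, IFNg_LPS array 2, or Ctrl array 1 or 2 (adjusted p from 0.0502 to 0.0864).

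After normalization C5ar1 was higher on every IFNg_LPS array than on every IFNg array and lower on every Ctrl_LPS array than on every Ctrl array. Its raw intensities overlapped in IFNγ-primed cells, 235.6 to 428.8 in IFNg_LPS against 211.1 to 286.3 in IFNg. They did not in unprimed cells, 304.9 and 367.9 in Ctrl_LPS against 578 to 704.7 in Ctrl. Its interaction of 1.35 was not called (adjusted p = 0.0549, and 0.0261 to 0.183 over 25 alternatives, 8 of which called it). After normalization C1qa did the reverse, lower with LPS in IFNγ-primed cells and higher in unprimed ones, without overlap. Its raw intensities overlapped in both, 2548 to 3448 in IFNg_LPS against 2917 to 4200 in IFNg, and 1375 and 1546 in Ctrl_LPS against 1428 to 1678 in Ctrl. Under median scaling C1qa differed by only -0.03 between IFNg_LPS and IFNg (limma adjusted p = 0.905). Its interaction of -0.63 was not called either (adjusted p = 0.0852, and 0.0344 to 0.27 over 25 alternatives, 2 of which called it).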

How the results depend on the processing

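Without an alternative that changed the call were C1qa in IFNg against Ctrl (1.38 to 1.53 over 21 alternatives), C5ar1 in the same comparison (-2.03 to -1.26 over 21) and in IFNg against IFNb (-2.03 to -1.18 over 20), and Cfb in the 3 LPS responses. Precision rests on 2 or 3 arrays a group, Cfb without LPS was near background, and LPS differs from no LPS by slide.

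Calls were lost as follows (log2 difference, limma adjusted p). With no background correction Cfb in IFNg against Ctrl was 0.33 (0.0885). Under median scaling C1qc was 0.18 (0.327) in Ctrl_LPS against Ctrl, 0.40 (0.0929) in IFNg_LPS against Ctrl_LPS and 0 (0.981) in IFNg_LPS against IFNg, where C1qa was -0.03 (0.905); C1qb in IFNb_LPS against IFNb was 0.02 (0.927). Under cyclic loess the same 5 were -0.28 (0.155), 0.36 (0.155), still called for C1qc in IFNg_LPS against IFNg, -0.16 (0.412) and -0.34 (0.085). With no detection filter C1qc was 0.38 (0.059) in IFNg against Ctrl, 0.48 (0.0558) in IFNg_LPS against Ctrl_LPS and -0.31 (0.0754) in IFNg_LPS against IFNg, where C1qa was -0.39 (0.0747), or -0.39 (0.0514) with detection p under 0.05. Fitting only the groups compared gave 0.38 (0.0571) for C1qc in IFNg against Ctrl, 0.84 (0.0765) for C1qa and 0.48 (0.147) for C1qc in IFNg_LPS against Ctrl_LPS, -0.39 (0.103) and -0.31 (0.114) for them in IFNg_LPS against IFNg, and -0.45 (0.0771) for C1qb in IFNb_LPS against IFNb. On the slide of both groups alone C1qa was 0.84 (0.0514) and C1qc 0.48 (0.135) in IFNg_LPS against Ctrl_LPS. In IFNg_LPS against IFNg, array weights gave -0.29 (0.0647) for C1qa, and leaving out IFNg array 1 and IFNg_LPS array 1 together, chosen after seeing the data, gave -0.18 (0.352) for C1qa and -0.22 (0.163) for C1qc. The cause was not tested.

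Calls were also gained: C1qb in IFNg against Ctrl under 6 of 21 alternatives, C1qa in IFNb against Ctrl under 5 of 19, C1qc in IFNg against IFNb under 4 of 20, C5ar1 in Ctrl_LPS against Ctrl under 9 of 18 and in the IFNγ interaction under 8 of 25, and C1qb under 3 of 20 each in IFNg_LPS against IFNb_LPS and against IFNg. Other gains of the 5 genes came under 1 or 2 alternatives each.

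The replicate number as a block, which may or may not pair these arrays, gave 0.46 (0.0709) for C1qc in IFNg_LPS against Ctrl_LPS. In IFNg_LPS against IFNg this block gave -0.39 (0.0658) for C1qa and -0.31 (0.0573) for C1qc. It lost Itgb2 in IFNg_LPS against Ctrl_LPS (0.0505) and Cd59a in IFNg against Ctrl (0.0718), and called C5ar1 in Ctrl_LPS against Ctrl, -0.80 (0.0417), and in the IFNγ interaction, 1.38 (0.0476). It also gave 57 called genes for IFNb against Ctrl, 29 for IFNb_LPS against Ctrl_LPS and 6 for the IFNβ interaction.

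Leaving out 1 array at a time gave -0.45 to -0.36 for C1qc in Ctrl_LPS against Ctrl, -0.52 to -0.38 for C1qb in IFNb_LPS against IFNb, 0.34 to 0.40 for C1qc in IFNg against Ctrl, and 0.58 to 0.89 for C1qa in IFNg against IFNb. In IFNg_LPS against Ctrl_LPS it gave 0.75 to 0.98 for C1qa and 0.43 to 0.53 for C1qc, and in IFNg_LPS against IFNg -0.47 to -0.24 for C1qa and -0.35 to -0.25 for C1qc.

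Numbers of genes called also moved. IFNb against Ctrl had 86, 31 to 62 without 1 array and 198 with array weights. IFNb_LPS against Ctrl_LPS had 46, 1 to 24 without 1 array, 29 with cyclic loess, 28 with no detection filter, 11 with detection on all 15 arrays, 73 with all detected probes, 16 with array weights and 0 by limma on the groups or the slide alone (656 and 680 at an unadjusted p under 0.05). The IFNβ interaction had 12, 1 to 15 without 1 array, 22 with no background correction, 20 with an offset of 50, 25 with detection on all 15 arrays, 19 with all detected probes and 27 with trended and robust variance. IFNg_LPS against Ctrl_LPS had 979, 408 to 1496 without 1 array, 200 on the groups, 290 on the slide and 1721 without both doubted arrays. IFNg_LPS against IFNb_LPS had 1029, with 521 to 1508, 177, 398 and 1790 in the same order. Array weights gave 3064 for IFNg against Ctrl (2000), 2600 for IFNg against IFNb (1574, and 857 to 1453 without 1 array) and 1465 for the IFNγ interaction (960, and 636 to 1237 without 1 array).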

Other observations

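Of the 18 other complement genes tested, in IFNg_LPS against IFNg 5 were higher and 5 lower, and in IFNb_LPS against IFNb 4 were higher and 4 lower, beside 53.3% and 55.1% called of all genes, with medians of 0.07 and 0.11 for the 18 beside -0.10 and -0.21 over all genes. Serping1, which entered the fit through IFNg_LPS, was among the 5 higher in IFNg_LPS than in IFNg. Scarf1 rose 2.82-fold with LPS after IFNγ priming (limma adjusted p = 5.92e-07) and 3.67-fold after IFNβ priming (adjusted p = 4.75e-07). C1qbp, a C1q-binding protein found mainly in mitochondria, changed by -1.35 on the log2 scale (adjusted p = 1.27e-06) and -1.23 (adjusted p = 2.19e-05) in the same comparisons. Cr1l, a membrane regulator of C3 and C4 activation in mice, rose by 1.09 after IFNγ priming (adjusted p = 2.2e-05). Its difference was 0.80 after IFNβ priming (adjusted p = 0.00156) and 0.73 in unprimed cells (adjusted p = 0.00148), so it was called in every priming state; these last 2 values were picked out after they were seen.

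The interferons were also set against each other for these genes. C4b was higher by 1.75 in IFNg than in IFNb (adjusted p = 0.0183), a call lost without IFNg array 2 or 3 or either IFNb array, and with no background correction it was 0.93, still called. Cd55 was not detected in IFNg and was at least 1.43-fold lower there than in IFNb (adjusted p = 0.000113, means 4.60 in IFNg and 6.08 in IFNb). Under LPS it was at least 2.7-fold lower in IFNg_LPS than in IFNb_LPS (adjusted p = 3.47e-06, means 4.78 in IFNg_LPS and 7.31 in IFNb_LPS). Over 19 alternatives this log2 difference was -2.66 to -1.06. Serping1 was at least 2.72-fold higher in IFNg_LPS, through which it entered the fit, than in IFNb_LPS (adjusted p = 0.000113, means 7.25 in IFNg_LPS and 4.88 in IFNb_LPS). Over 19 alternatives its log2 difference was 1 to 2.72.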
